A study of Mus musculus with 2 samples.

Results

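The retina is divided along its dorsal to ventral axis by transcription factors and by the guidance receptors and ligands that they pattern, and 9 genes of this axis were followed in single cells of the embryonic mouse eye. They were chosen by symbol from 32285 genes in the files, and all 9 were found. The dorsal genes were the T-box transcription factors Tbx2, Tbx3 and Tbx5 and the ephrin-B ligands Efnb1 and Efnb2. The ventral genes were the homeobox transcription factors Vax1 and Vax2 and the Eph receptors Ephb2 and Ephb3. Cells came from E17.5 eye cups of a Myrf humWT/humWT strain and a Myrf humdG/humdG strain, with 1 library per genotype from pooled eye cups of 3 mice. Both strains carry, in every cell, a humanized allele in which the last exon of mouse Myrf was replaced with its human counterpart, and the C-terminal variant is present in the humdG allele in addition. Cells of the whole eye cup were taken, so other tissues of the eye are present beside the retina and the retinal pigment epithelium (RPE). Homozygous humdG mice die before birth, so the comparison is embryonic. Unmodified and conditional knockout animals were not analysed here, so every comparison is between these 2 humanized strains.

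In the developing eye, bone morphogenetic protein signaling supports dorsal fate and the T-box factors act with it, whereas the Vax factors act ventrally. Ganglion cell axons then read the axis through EphB receptors, which are highest ventrally, and ephrin-B ligands, which are highest dorsally, when they map onto their targets. Dissociation removes each cell's position, so dorsal and ventral are used below as the names of the gene sets and not as measured positions.

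Positions of the genes are given on GRCm38. Tbx2 is at chr11:85832551-85841948 on the plus strand. Tbx3, at chr5:119670669-119684724, and Tbx5, at chr5:119832668-119885219, are both on the plus strand. Vax1 is at chr19:59166187-59170056 on the minus strand, and Vax2 is at chr6:83711264-83738313 on the plus strand. Ephb2 is at chr4:136647539-136835988 on the minus strand, and Ephb3 is at chr16:21204755-21223305 on the plus strand. Efnb1 is at chrX:99136130-99148991 on the plus strand, and Efnb2 is at chr8:8617434-8661242 on the minus strand.

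Promoter sequences are shown for 4 genes that were found with Vax2 or with the T-box genes in the same progenitors more often than expected, as described below. The sequences are those of RefSeq on GRCm38.p6, 250 bases before to 50 bases after the RefSeq start, read 5′ to 3′ on the strand of the gene. The window of Efnb1 is chrX:99135811-99136110 (plus), that of Efnb2 is chr8:8661193-8661492 (minus), that of Vax1 is chr19:59170348-59170647 (minus) and that of Ephb3 is chr16:21204545-21204844 (plus). Capitals mark matches on either strand to a T-box core, GGTGTG, or to a homeodomain core, TAAT.
Efnb1: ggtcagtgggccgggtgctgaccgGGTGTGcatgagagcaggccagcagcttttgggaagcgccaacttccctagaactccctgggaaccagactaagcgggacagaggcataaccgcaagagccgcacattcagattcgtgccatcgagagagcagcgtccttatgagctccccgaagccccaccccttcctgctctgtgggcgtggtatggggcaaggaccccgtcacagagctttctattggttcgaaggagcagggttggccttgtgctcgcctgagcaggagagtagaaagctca
Efnb2: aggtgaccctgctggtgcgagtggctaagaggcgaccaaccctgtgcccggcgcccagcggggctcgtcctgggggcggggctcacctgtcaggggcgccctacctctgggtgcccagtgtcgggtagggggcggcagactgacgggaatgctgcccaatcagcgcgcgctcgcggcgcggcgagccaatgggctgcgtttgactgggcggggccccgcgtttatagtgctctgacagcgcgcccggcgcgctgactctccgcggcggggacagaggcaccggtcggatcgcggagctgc
Vax1: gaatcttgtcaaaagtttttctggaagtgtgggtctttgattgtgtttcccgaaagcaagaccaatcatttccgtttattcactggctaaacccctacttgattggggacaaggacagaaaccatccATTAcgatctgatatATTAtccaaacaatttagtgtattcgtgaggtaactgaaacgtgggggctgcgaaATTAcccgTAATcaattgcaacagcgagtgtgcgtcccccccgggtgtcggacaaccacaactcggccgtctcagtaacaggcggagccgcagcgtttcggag
Ephb3: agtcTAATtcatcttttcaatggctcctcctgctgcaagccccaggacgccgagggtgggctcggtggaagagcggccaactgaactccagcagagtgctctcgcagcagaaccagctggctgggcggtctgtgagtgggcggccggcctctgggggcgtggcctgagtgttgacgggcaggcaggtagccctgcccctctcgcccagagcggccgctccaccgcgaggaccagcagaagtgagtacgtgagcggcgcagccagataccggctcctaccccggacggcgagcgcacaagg

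The T-box core was present once in the Efnb1 window and was absent from the windows of Efnb2, Vax1, Ephb3 and Ephb2. It occurs in 19.0% of the 32851 promoter windows of this length. The homeodomain core matched 4 times in the Vax1 window and once in the Ephb3 window, and 58.0% of all windows hold it. The windows of Efnb1, Efnb2 and Ephb2 held no such match. The reverse complements CACACC and ATTA were searched with them, and no match of one core overlapped a match of the other. RefSeq entries were found for 5 of the 9 genes (Vax1, Ephb2, Ephb3, Efnb1 and Efnb2). The promoters of Tbx2, Tbx3, Tbx5 and Vax2 are not shown.

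After filtering, 16166 cells remained in the humWT library and 18172 in the humdG library, with medians of 3785 and 2625 unique molecular identifiers (UMIs) per cell. The 2 libraries share 102 barcode sequences, and cells were kept apart by library. Clusters were formed without the 9 genes and named from marker genes. Retinal progenitor-like cells, which had raised Fgf15, Rax, Hes1, Ccnd1 and Lhx2, numbered 1799 in humWT and 3022 in humdG, with median depths of 8313 and 8592.5 UMIs. Neurogenic-like cells (372 and 708), photoreceptor precursor-like cells (638 and 861), amacrine and horizontal-like cells (516 and 897) and RPE-like cells (541 and 384; raised Dct, Pmel, Tyr, Tyrp1, Rlbp1, Slc45a2 and Mitf) were also named. The amacrine and horizontal-like cluster was raised for 6 amacrine and horizontal markers and for 6 markers of retinal ganglion cells, so the 2 types were not separated. Red blood cell-like cells (505 and 253; medians 4059 and 4160 UMIs), which should lack these genes, served as a measure of free RNA. With 1 library per genotype there is no replicate and no test, and all intervals are 95% intervals that cover counting error only.

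Levels are given as CPM, the UMIs of a gene scaled to the total UMIs of its class, and are compared between classes for the same gene, because the counts carry no correction for gene length. Tbx2, a T-box repressor active in the dorsal retina, was high in retinal progenitor-like cells, neurogenic-like cells and photoreceptor precursor-like cells. In progenitors it was at 59.8 CPM (56.0–63.7) in humWT and 68.4 CPM (65.2–71.6) in humdG. In neurogenic-like cells it was at 76.5 and 67.3 CPM, and in photoreceptor precursor-like cells at 61.3 and 70.5 CPM. Among these 3 classes, neighbors in the order had overlapping intervals within each library. Amacrine and horizontal-like cells were lower, at 26.8 and 41.0 CPM. RPE-like cells had 27.3 CPM (22.6–32.7) and 33.2 CPM (26.4–41.3), above the 11 and 15.9 CPM of red blood cell-like cells.

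Tbx3, a related T-box repressor, followed another order. Among the named clusters it was highest in amacrine and horizontal-like cells, at 46.7 CPM in humWT and 37.6 CPM in humdG, and in neurogenic-like cells, at 38.0 and 41.2 CPM, and the intervals of these 2 classes overlapped. Progenitors stood below them at 18.0 CPM (16.0–20.3) and 27.1 CPM (25.1–29.1). Photoreceptor precursor-like cells, at 7.45 and 8.88 CPM, and RPE-like cells, at 5.09 and 6.15 CPM, had intervals that overlapped those of red blood cell-like cells (5.73 and 4.42 CPM), so Tbx3 was not distinguishable from background there.

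Tbx5, the T-box factor of the dorsal rim of the optic cup, was near the limit of detection in humWT, where 7 UMIs were found in 7 of 1799 progenitors (0.448 CPM, 0.180–0.922). In humdG, 96 UMIs were found in 85 of 3022 progenitors (3.63 CPM, 2.94–4.43). The 2 intervals do not overlap. Red blood cell-like cells held 1 Tbx5 UMI in humWT and 0 in humdG, and the latter allows a UMI in up to 1.19% of cells. Their CPM intervals, 0.0112–2.46 around 0.441 in humWT and 0–3.26 in humdG, overlapped those of progenitors in each library. In neurogenic-like cells 0 UMIs were found in 372 humWT cells, which allows a share of cells with a UMI of up to 0.806%, and 12 UMIs in humdG. In photoreceptor precursor-like cells 1 UMI was found in humWT and 10 in humdG. In amacrine and horizontal-like cells the counts were 4 and 21. RPE-like cells had the reverse order, with 5 UMIs in humWT (1.16 CPM, 0.376–2.70) and 1 in humdG (0.410 CPM, 0.0104–2.29). These 2 intervals overlapped.

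Vax1, the homeobox factor of the optic stalk and ventral optic cup, was scarce in every retinal class, at 13 UMIs (0.831 CPM) in humWT and 24 UMIs (0.907 CPM) in humdG progenitors. Its level was highest in neural crest and glia-like cells, at 8.34 and 4.74 CPM, from 7 and 3 UMIs alone. The intervals of these values overlapped the next class in each library. Vax2, the homeobox factor of the ventral retina, was at 40.5 CPM (37.4–43.8) and 36.8 CPM (34.5–39.2) in progenitors and at 41.7 and 40.0 CPM in amacrine and horizontal-like cells, and these neighbors in the order overlapped. Photoreceptor precursor-like cells (30.7 and 34.5 CPM) and neurogenic-like cells (29.1 and 30.7 CPM) followed. RPE-like cells came next, at 23.4 CPM (19.0–28.4), which overlapped neurogenic-like cells in humWT, and 16.8 CPM (12.1–22.8), which did not in humdG. Vax2 in RPE-like cells was above red blood cell-like cells, at 7.94 CPM (4.71–12.5) and 4.42 CPM (1.43–10.3). The antisense gene Vax2os overlaps Vax2 by 938 bases on the opposite strand.

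Among the receptors, Ephb2 was at 188 CPM (181–195) and 181 CPM (176–186) in progenitors, 220 and 193 CPM in amacrine and horizontal-like cells and 164 and 156 CPM in neurogenic-like cells. It was lower in photoreceptor precursor-like cells, at 67.6 and 63.0 CPM, and in RPE-like cells, at 41.2 and 41.4 CPM. The RPE-like interval of Ephb2 cleared that of red blood cell-like cells in humWT but overlapped it in humdG (33.7–50.3 against 16.4–35.7 CPM). Ephb3 had its highest level outside the retina, in mesenchyme-like cells (58.4 and 45.4 CPM). It was at 19.8 CPM (17.6–22.1) and 13.3 CPM (12–14.8) in progenitors and at 26.4 and 18.0 CPM in RPE-like cells. The progenitor interval cleared that of red blood cell-like cells in humWT (11.9 CPM, 7.85–17.3) but overlapped it in humdG (7.07 CPM, 3.05–13.9). The same held for RPE-like cells, with intervals of 21.8–31.7 CPM in humWT and 13.1–24.2 CPM in humdG.

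Among the ligands, Efnb1 was also highest in mesenchyme-like cells (75.5 and 66.0 CPM) and blood vessel-like cells (66.1 and 60.4 CPM). Progenitors had 16.7 CPM (14.7–18.8) and 18.3 CPM (16.7–20), of which the humWT value overlapped the red blood cell-like level of 11.5 CPM (7.49–16.8). RPE-like cells had 13.4 and 13.5 CPM of Efnb1, with intervals that overlapped red blood cell-like cells in both libraries. Efnb2, which also marks arterial vessels, was highest in blood vessel-like cells at 185 and 192 CPM. In progenitors it was at 48.5 CPM (45.1–52.0) in humWT and 98.1 CPM (94.4–102) in humdG, and in amacrine and horizontal-like cells at 50 and 65.0 CPM. Photoreceptor precursor-like cells had 13 CPM in humWT and 21.8 CPM (18.1–25.9) in humdG, and both intervals overlapped those of red blood cell-like cells (20.3 CPM in humWT and 13.2 CPM, 7.42–21.9, in humdG). Neurogenic-like cells had 14.3 CPM (10.5–19.0), which also overlapped that level, and 30 CPM (25.9–34.7), which did not. RPE-like cells had 28.2 CPM (23.5–33.7) in humWT, which overlapped it, and 31.6 CPM (24.9–39.5) in humdG, which did not.

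**Figure D1:**
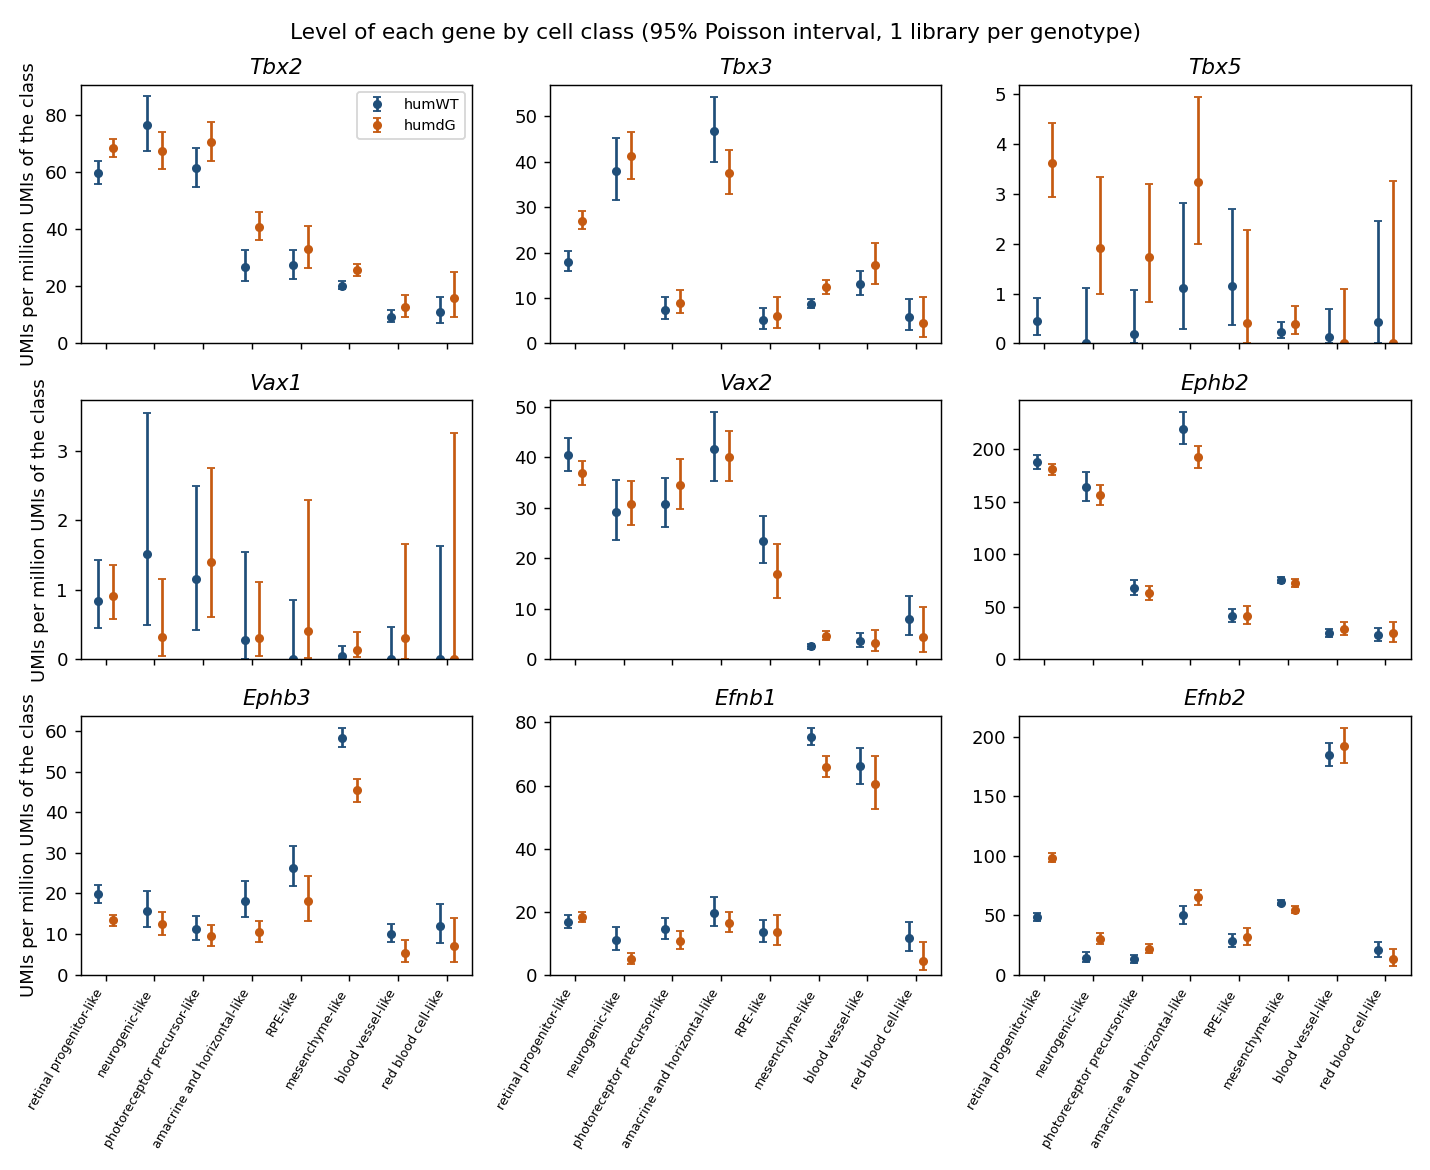
Levels of the 9 genes (CPM, linear axes from 0, a panel per gene) by cell class in the humWT and humdG libraries, with points for the level of the summed UMIs and bars for 95% exact Poisson intervals. Efnb2 in retinal progenitor-like cells is at 48.5 CPM in humWT and 98.1 CPM in humdG, whereas Vax2 is at 40.5 and 36.8 CPM.

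The share of progenitors with a UMI of each gene was set beside that of red blood cell-like cells. Ephb2 was found in 69.0% of humWT and 70.5% of humdG progenitors, against 8.91% and 9.88% in red blood cell-like cells. Tbx2 was found in 35.9% and 39.2%, against 4.55% and 7.11%. Vax2 was found in 23.4% and 22.6%, against 3.56% and 1.98%. Efnb2 was found in 30.2% and 42.8%, against 7.92% and 5.53%. When each cell was thinned to 1000 UMIs, which removes the difference in depth, Ephb2 was in 15.8–19.4% (interval) of humWT progenitors and 17.3% of humdG progenitors, against 2.60% and 4.02% in red blood cell-like cells. Thinned Tbx2 was in 6.12% and 6.77% against 1.40% and 2.41%, and thinned Vax2 in 3.62% and 3.48% against 0.600% and 0%, which allows up to 1.20%. Thinned Efnb2 was in 5.18% (4.2–6.30) of humWT progenitors against 2.60% (1.39–4.41) in red blood cell-like cells, which overlapped, and in 9.29% (8.27–10.4) against 2.41% (0.889–5.17) in humdG, which did not. For Tbx3, Ephb3 and Efnb1, the thinned intervals of progenitors and red blood cell-like cells overlapped in both libraries, so at this reduced depth no difference from background was detectable.

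Dorsal and ventral genes were next compared within the same cells. For each pair, the number of cells with a UMI of both genes was set against the number expected if the genes were found independently among cells of similar depth, with cells divided into 10 bins of total UMIs. Of the 36 pairs, 23 had an expected number of at least 5 in both libraries of progenitors. Among these, 10 joined genes of the same side and 13 joined a dorsal with a ventral gene. All 10 same-side pairs were found together more often than expected in both libraries, although several intervals reached 1, and 10 of 13 opposite-side pairs were found together less often in both. The other 3 opposite-side pairs, Tbx2 with Vax1, Tbx2 with Ephb3 and Tbx3 with Ephb2, went one way in one library and the opposite way in the other. For comparison, each of the 9 genes was paired with every other gene, and 21.7% of 101182 such pairs were below expectation in both libraries and 32.2% were above it in both. The median observed over expected number was 1.13 in each library for same-side pairs, and 0.871 in humWT and 0.918 in humdG for opposite-side pairs. These counts depend on how depth is treated, since with no depth bins 6 of 12 opposite-side pairs were below expectation in both libraries, and with cells thinned to 1000 UMIs 1 of 3 same-side pairs was above it and 0 of 3 opposite-side pairs were below it.

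Vax2 was found with the dorsal genes less often than expected. In humWT, 646 progenitors had a Tbx2 UMI and 421 had a Vax2 UMI, and 134 had both against 177 expected, a ratio of 0.755 (0.650–0.866). In humdG, 258 had both against 307 expected, a ratio of 0.841 (0.760–0.925). Tbx3 and Vax2 were in 47 of 65.2 expected cells in humWT (0.720, 0.543–0.925) and in 98 of 145 in humdG (0.676, 0.557–0.807). Tbx5 and Vax2 could be examined in humdG alone, where 7 of the 85 Tbx5 cells had Vax2 (8.24%) against 27.0% expected, a ratio of 0.305 (0.125–0.601). These intervals lay below 1, while cells with UMIs of both sides were still found in each library.

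The ephrin-B ligands were found less often with Vax2 and more often with the T-box genes than expected, although some intervals reached 1. Efnb1 and Vax2 were together at 0.689 (0.503–0.910) of the expected number in humWT and 0.638 (0.502–0.793) in humdG. Efnb2 and Vax2 were together at 0.871 (0.743–1.01) in humWT, where the interval reaches 1, and at 0.684 (0.609–0.762) in humdG. Tbx2 and Efnb1 were together at 1.22 (1.04–1.39) in humWT and 1.22 (1.11–1.34) in humdG. Tbx2 and Efnb2 were at 1.14 (1.04–1.25) and 1.08 (1.02–1.14). Tbx3 and Efnb1 were at 1.53 (1.16–1.96) and 1.18 (0.987–1.40), and Tbx3 and Efnb2 at 1.02 (0.843–1.22) and 1.23 (1.14–1.32). Among the T-box genes, the ligands had their highest ratios with Tbx5 in humdG, where 75 of 85 Tbx5 cells had Efnb2 (88.2%, against 48.5% expected) and 27 had Efnb1 against 13.8 expected. Efnb1 and Efnb2 were themselves found together at 1.16 (0.956–1.37) and 1.14 (1.03–1.25).

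The Eph receptors were found with Vax2 more often than expected, with an interval that reached 1 for Ephb3 in humdG. Ephb2 is found in most progenitors, which limits how far above 1 its ratios can rise. Ephb2 and Vax2 were together at 1.11 (1.06–1.16) of the expected number in humWT and 1.05 (1.01–1.09) in humdG. Ephb3 and Vax2 were at 1.21 (1.01–1.44) and 1.19 (0.984–1.41). Vax1 and Vax2 were both in 12 of the 24 humdG cells with Vax1, against 6.43 expected (1.87, 1.09–2.65). For receptor with ligand, Ephb3 and Efnb2 were at 0.795 (0.640–0.967) and 0.918 (0.797–1.04), whereas Ephb2 and Efnb2 were at 0.975 (0.919–1.03) and 0.981 (0.946–1.02), which reached 1 in both libraries.

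**Figure D2:**
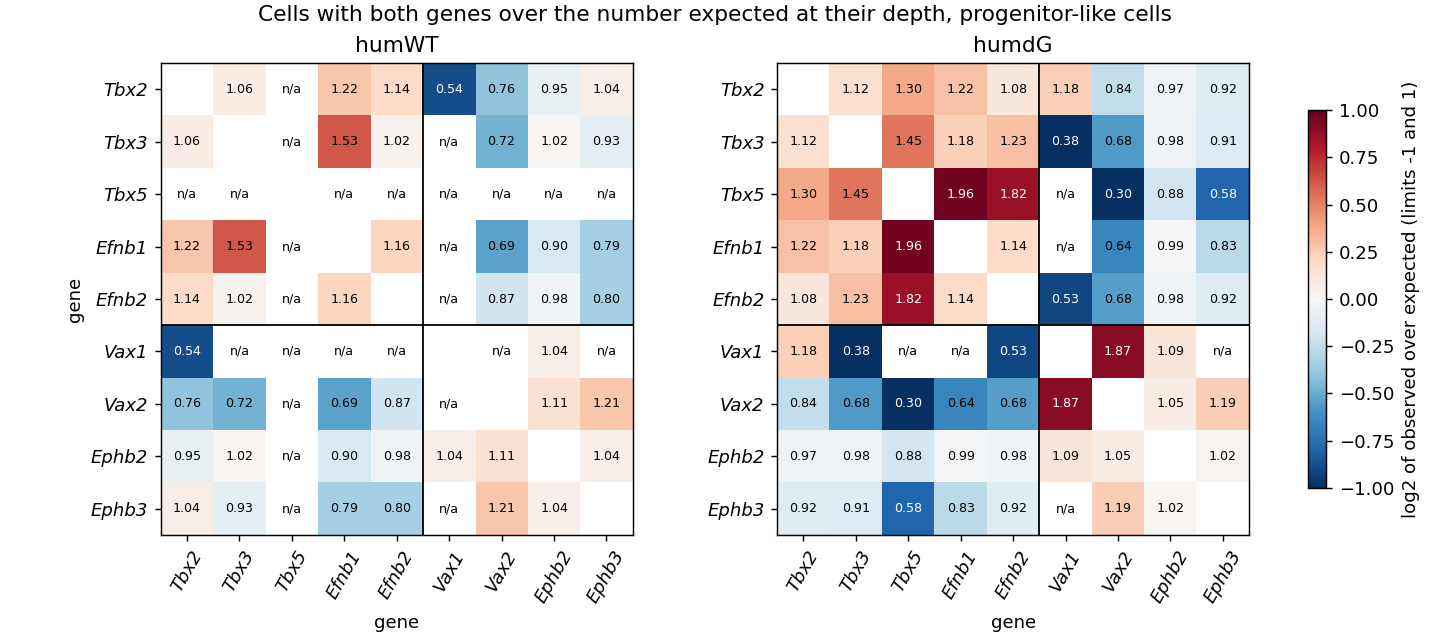
Observed over expected number of retinal progenitor-like cells with both genes of each pair, printed in each square and colored by its log2 value, in a panel per library, with black lines between dorsal and ventral genes and n/a where under 5 cells were expected. Squares within a side are mostly above 1 and squares across the lines are mostly below 1, with Vax2 and Efnb1 at 0.689 and 0.638.

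These ratios were placed among all genes. Low ranks used the larger of a gene's 2 library ratios, and high ranks used the smaller. Of 13905 genes that could be paired with Vax2, 51 had both ratios below 0.689, the larger of the 2 for Efnb1. In the same way, 74 had both below 0.720 (Tbx3), 301 below 0.841 (Tbx2) and 427 below 0.871 (Efnb2). At the other end, 152 genes had both ratios with Vax2 above 1.19, the smaller of the 2 for Ephb3. For Ephb2, 1106 genes had both above its smaller ratio of 1.05. A counted gene can thus lie on the other side of the member in 1 library. These ranks describe the 2 libraries and carry no test.

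The same pairs were examined in neurons and RPE. In neurogenic-like cells Tbx2 and Vax2 were together at 0.890 (0.643–1.15) of the expected number in humWT and 0.478 (0.328–0.659) in humdG. Tbx3 and Vax2 were there at 1.28 (0.907–1.68) and 0.710 (0.5–0.960), in opposite directions in the 2 libraries. In photoreceptor precursor-like cells Tbx2 and Vax2 were at 1.14 in both libraries, with intervals of 0.882–1.40 and 0.927–1.37. In amacrine and horizontal-like cells they were at 0.987 (0.592–1.48) and 1.08 (0.834–1.35), and Vax2 with Efnb2 was at 0.797 (0.520–1.13) and 0.770 (0.580–0.985). In RPE-like cells Tbx2 and Vax2 were both in 12 humWT cells against 17.1 expected (0.701, 0.377–1.14) and in 3 humdG cells against 6.40 expected (0.469, 0.0993–1.22).

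Pairs were counted in each class beside the shares over pairs of a member with any gene. In neurogenic-like cells 6 of 11 opposite-side pairs were below expectation in both libraries and 2 were above it in both, where 22.2% and 29.8% of all pairs were. In photoreceptor precursor-like cells 0 of 10 were below and 3 were above, against 13.6% and 41.0%. In amacrine and horizontal-like cells 2 of 12 were below and 4 were above, against 23.6% and 30.1%, and in RPE-like cells 1 of 7 was below and 3 were above, against 16.3% and 41.2%. In photoreceptor precursor-like, amacrine and horizontal-like and RPE-like cells, the opposite-side pairs were thus not more often below expectation than pairs with any gene. Same-side pairs were above expectation in both libraries in 4 of 8 for neurogenic-like cells, 5 of 7 for photoreceptor precursor-like cells, 3 of 9 for amacrine and horizontal-like cells and 2 of 3 for RPE-like cells. These classes hold fewer cells than the progenitors, their intervals are wider, and differences between classes were not tested. Retinal ganglion cells formed no cluster, and cells of the unnamed clusters with UMIs of at least 3 of 8 ganglion cell markers were taken instead (136 and 271). Their median depths were 19544 and 2759 UMIs, and since the gate counts detected markers and so depends on depth, they were not compared between libraries. In them Tbx2 with Vax2 was at 1.03 in each library (0.800–1.22 and 0.852–1.17), and of 12 opposite-side pairs 1 was below expectation in both libraries and 6 were above it. The share over pairs with any gene was not computed for these cells, so this count cannot be set against it.

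**Figure D3:**
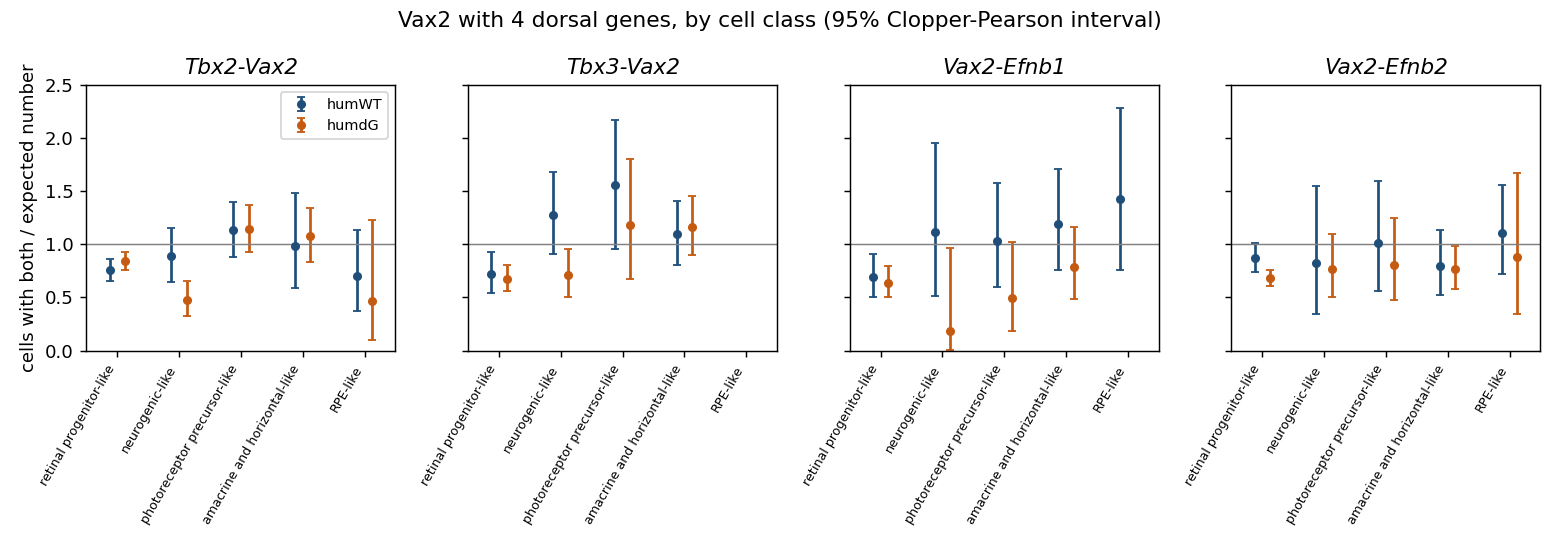
Observed over expected number of cells with Vax2 and each of 4 dorsal genes (linear axis, a panel per pair), by class and library, with bars for 95% Clopper-Pearson intervals and points left out where under 5 cells were expected. In progenitors Tbx3 with Vax2 is at 0.720 and 0.676, and in photoreceptor precursor-like cells Tbx2 with Vax2 is at 1.14 in both libraries.

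Other genes were then compared between progenitors with a Vax2 UMI and no Tbx5 UMI and those with a Tbx5 UMI and no Vax2 UMI. There were 420 and 6 such cells in humWT and 676 and 78 in humdG, so the humWT side of this comparison rests on 6 cells. Of 8965 genes with enough UMIs, 20 (0.223%) were at least 2-fold higher in Tbx5-marked cells of both libraries and 19 (0.212%) were at least 2-fold higher in Vax2-marked cells of both. These ratios had 0.5 UMIs added, and 14 of the 19 genes had 0 UMIs in the 6 humWT cells. Of the 6 members that had at least 50 UMIs in each library and did not mark the cells, Tbx3, Efnb1 and Efnb2 were past this fold on the dorsal side, and 0 were past it on the ventral side by UMIs counted in both groups of both libraries. The humWT ratio of Ephb3 passed 2-fold through the added 0.5 UMIs and was not counted. The 19 genes above were counted by a looser rule that kept such genes, and by that rule 1 member, Ephb3, was past the fold on the ventral side. Efnb2 was at 309 CPM in Tbx5-marked and 46.0 CPM in Vax2-marked humdG cells (6.71-fold, 5.70–7.89) and at 175 and 36.1 CPM in humWT. The Tbx5-marked humWT cells held 9 UMIs of Efnb2, 3 of Tbx3 and 2 of Efnb1. Tbx3 was at 42.9 and 15.6 CPM in humdG, and Efnb1 at 31.9 and 9.95 CPM. Ephb2 had the opposite order, at 136 CPM in Tbx5-marked and 207 CPM in Vax2-marked humdG cells (1.52-fold, 1.27–1.84). Ephb3 was at 6.59 and 14.8 CPM in humdG (2.24-fold, 0.996–6.25), and in humWT 0 of its UMIs were in the 6 Tbx5-marked cells, a floor of 58.4 CPM for 3 counts, so humWT gives no order for it.

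Of the dorsal list of 6 genes (Bmp4, Bambi, Aldh1a1, Nr2f2, Gdf6 and Msx2), 2 had enough UMIs and both, Bambi and Nr2f2, were past 2-fold in Tbx5-marked cells of both libraries. Nr2f2, a nuclear receptor of the dorsal eye, was at 165 CPM in Tbx5-marked and 18.9 CPM in Vax2-marked humdG cells. Bambi, a pseudoreceptor that limits bone morphogenetic protein signaling, was at 51.6 and 16.6 CPM. Aldh1a1, the retinaldehyde dehydrogenase of the dorsal retina, was below the UMI minimum in humWT and was at 89.0 and 14.5 CPM in humdG. Of the ventral list of 7 genes, 6 had enough UMIs and 2 of these, Aldh1a3 and Bmpr1b, were past 2-fold in Vax2-marked cells of both libraries. By direction alone, 4 of the 6 were higher in Vax2-marked cells of both libraries, and 1 was higher in Tbx5-marked cells of both. Aldh1a3, the retinaldehyde dehydrogenase of the ventral retina, was at 167 CPM in Vax2-marked and 24.2 CPM in Tbx5-marked humdG cells, and in humWT, where 780 and 0 UMIs were found, it was at least 2.94-fold higher in Vax2-marked cells. Bmpr1b, a type I bone morphogenetic protein receptor, was at 188 and 34.1 CPM in humdG, and in humWT its UMIs numbered 652 and 1. Smoc1, a secreted matrix protein, was at 34.1 and 3.30 CPM in humdG. Ephb1, another EphB receptor, was at 137 and 131 CPM in humdG, a ratio of 1.05 with an interval (0.864–1.28) that includes 1. Of the nasal and temporal list, 6 of 8 genes had enough UMIs and 0 were past 2-fold in both libraries.

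The 8 genes ranked closest to Vax2 by the smaller of the ratios in the 2 libraries were Vax2os, Aldh1a3, Bmpr1b, Col6a1, Gm14133, Fam110b, Tshz2 and Trib1. Bmpr1b and Tshz2 had 1 UMI each in the 6 Tbx5-marked humWT cells and the others had 0, so the humWT part of this order rests largely on the added 0.5 UMIs and on how abundant each gene is. Vax2os was at 104 CPM in Vax2-marked and 6.59 CPM in Tbx5-marked humdG cells. Its overlap with Vax2 lies at the 5′ ends of the 2 genes, on opposite strands, whereas the chemistry used was 3′. Whether reads of one gene were counted for the other was not tested. The 8 ranked closest to Tbx5 were Efnb2, Nr2f2, Efnb1, Bambi, Mef2c, Galntl6, Tbx3 and Pde4b, of which 3 are members, each on 2 to 9 UMIs in the same 6 cells.

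A wider split, of cells with a Vax1 or Vax2 UMI and no T-box UMI against cells with a T-box UMI and no Vax UMI, gave 256 and 606 cells in humWT and 374 and 1170 in humdG, with medians of 9349.0 and 9319.5 UMIs in humWT and 9343.5 and 9346.5 UMIs in humdG. Of 10721 genes, 12 (0.112%) were at least 2-fold higher on the T-box side in both libraries and 3 (0.028%) on the Vax side. Of the 4 members that did not mark the cells, Efnb1 was past this fold, at 22.9 CPM on the T-box side and 10.3 CPM on the Vax side in humWT (2.23-fold) and at 23.8 and 6.75 CPM in humdG (3.52-fold). Efnb2 was at 53.2 and 27.7 CPM in humWT (1.92-fold) and at 133 and 42.7 CPM in humdG (3.11-fold). Ephb2 was 1.59-fold (1.43–1.77) higher on the Vax side in humWT and 1.35-fold (1.23–1.47) in humdG. Ephb3 was 1.27-fold (0.902–1.77) and 1.33-fold (0.937–1.86), with intervals that reached 1. The 3 genes past the fold on the Vax side were Vax2os (4.45-fold and 5.48-fold), Aldh1a3 (2.97-fold and 2.93-fold) and Bmpr1b (2.33-fold and 3.03-fold). Cyp26a1, the retinoic acid-degrading enzyme of the equatorial stripe, was higher on the T-box side, at 117 against 13.5 CPM in humWT and 77.8 against 21.7 CPM in humdG. Between Tbx5-marked and Vax2-marked humdG cells it was at 29.7 and 27.1 CPM.

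**Figure D4:**
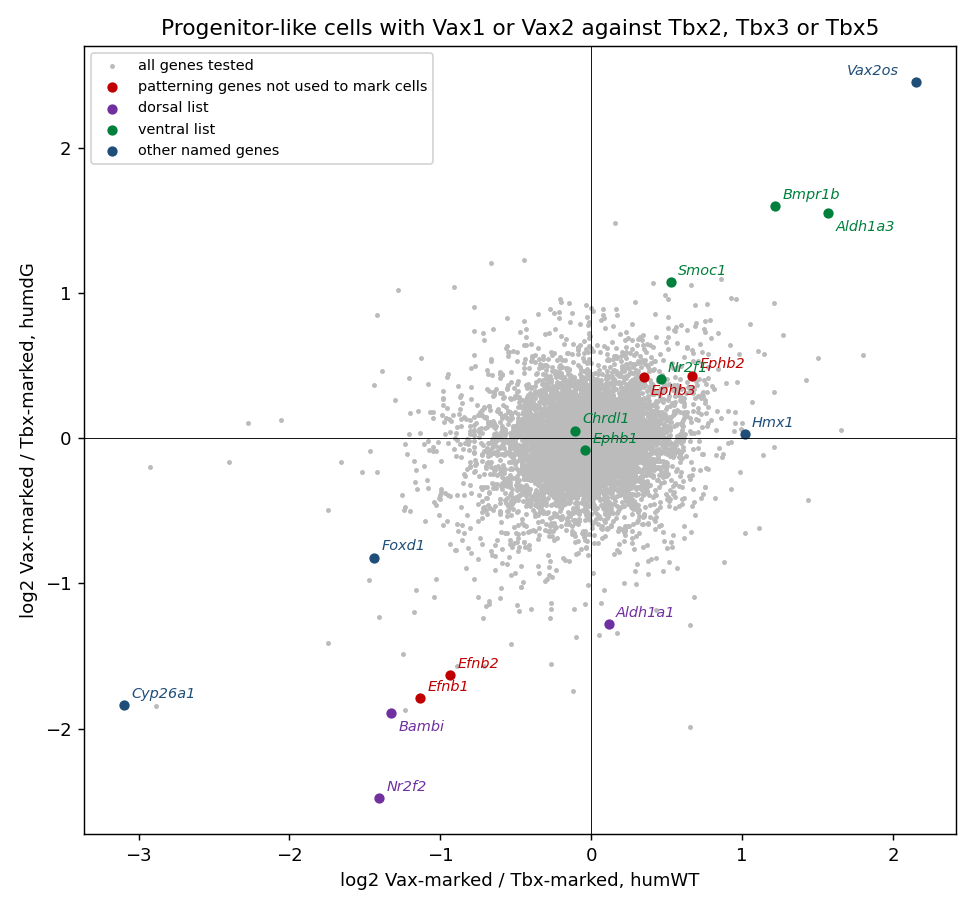
Log2 ratio of progenitor-like cells with Vax1 or Vax2 over cells with Tbx2, Tbx3 or Tbx5 (0.5 UMIs added), with humWT on the horizontal and humdG on the vertical axis, for all 10721 genes in gray and for named genes in color. Vax2os, Aldh1a3 and Bmpr1b lie on the Vax side of both libraries, and Efnb1, Efnb2, Nr2f2 and Bambi lie on the T-box side.

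Levels were last compared between the genotypes. In progenitors, 3 of 9 members were at least 1.5-fold higher in humdG (Tbx3, Tbx5 and Efnb2), where 5.17% of all 16076 genes were, and 0 were at least 1.5-fold lower, where 10.7% were. Efnb2 was 2.02-fold higher (1.87–2.20), and its values were 60.7 and 115 CPM in one progenitor-like cluster and 36.8 and 81.8 CPM in the other. The Efnb2 difference depended on how cells were chosen. With marker gates in place of clusters its log2 ratio was 0.33 in progenitors, 0.44 in neurogenic-like cells and 0.04 in photoreceptor precursor-like cells, under the fold in each. Ephb3 in progenitors was then past it, lower in humdG, at -0.66. The gates took 4782 humWT and 8144 humdG cells as progenitors, against 1799 and 3022 in the clusters. Whether the added cells were progenitors was not tested. Tbx3 was 1.5-fold higher (1.31–1.73), at the threshold itself. It was just under the threshold, which left 2 members past it, at clustering resolution 1.0, with members among the variable genes, with a mitochondrial share under 10% and in cells with at least 5000 UMIs. Tbx5 was 8.11-fold higher (3.79–20.7) from 7 and 96 UMIs. Tbx2 differed by 1.14-fold (1.06–1.24). The ventral genes were not past the fold, with Vax2 at 0.910 (0.822–1.01), Vax1 at 1.09 (0.534–2.33), Ephb2 at 0.964 (0.920–1.01) and Ephb3 at 0.675 (0.578–0.789). Efnb1 was at 1.10 (0.941–1.28). The intervals of Vax2, Ephb2 and Efnb1 held 1, and with marker gates their log2 ratios took the other sign, at 0.48, 0.37 and -0.58.

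The dorsal and ventral lists were read the same way. Of 5 dorsal list genes with at least 20 UMIs, Aldh1a1 (3.95-fold), Nr2f2 (2.30-fold), Gdf6 (2.27-fold) and Bambi (1.56-fold) were higher in humdG progenitors and Bmp4 was lower (0.513). Of 7 ventral list genes, 0 were higher and Pax2, a gene of the optic stalk and disc, was lower (0.209, from 48 and 17 UMIs). Within progenitors that had a Tbx3 UMI, Efnb2 was at 44.5 CPM (36.6–53.5) in humWT and 150 CPM (140–160) in humdG. Within those that had a Tbx2 UMI it was at 52.2 CPM (46.8–58.0) and 108 CPM (102–114). Within those that had a Vax2 UMI it was at 36 CPM (30.7–42.0) and 48.5 CPM (43.5–53.9). The differences in cells with Tbx3 and in cells with Tbx2 are past 1.5-fold, and that in cells with Vax2 is under it. The share of progenitors from each side of the retina that entered each library was not measured.

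In neurogenic-like cells, 1 of 7 members with at least 20 UMIs, Efnb2 (2.11-fold, 1.52–2.96), was past 1.5-fold higher in humdG, where 5.3% of genes were, and 1, Efnb1 (0.451, 0.270–0.750), was past 1.5-fold lower, where 10.3% were. The Efnb1 levels there overlapped those of red blood cell-like cells, in which its ratio was 0.385 (0.115–1.02). In photoreceptor precursor-like cells, 1 of 7, Efnb2 (1.68-fold, 1.24–2.29), was higher, where 6.36% of genes were, and 0 were lower, where 10.7% were. In amacrine and horizontal-like cells, 2 of 8, Tbx2 (1.53-fold, 1.21–1.95) and Tbx5 (2.93-fold, 0.988–11.7), were higher, where 6.57% were, and Ephb3 (0.574, 0.403–0.819) was lower, where 14.3% were. At resolution 1.0 and with members among the variable genes, Tbx2 (log2 ratios 0.57 and 0.58) and Ephb3 (-0.53 and -0.54) were under the fold, which left 1 member past it. Ephb3 in red blood cell-like cells was at 0.593 (0.233–1.34), and Efnb2 was at 0.653 (0.339–1.19) there. The lower Ephb3 was not particular to the retina. It was lower in mesenchyme-like (0.777, 0.721–0.836), blood vessel-like (0.527, 0.297–0.886), muscle-like (0.692, 0.515–0.918) and surface epithelium-like cells (0.468, 0.240–0.854). The Ephb3 interval held 1 in cartilage-like, white blood cell-like, neural crest and glia-like and pericyte-like cells, with pericyte-like cells above 1 (1.65). Outside the retina, Efnb2 was also higher in humdG in white blood cell-like cells (2.04-fold, 1.30–3.23) and in neural crest and glia-like cells (4.24-fold, 1.48–14.8). It was lower in mesenchyme-like cells (0.901, 0.840–0.965). Its interval held 1 in blood vessel-like, cartilage-like, muscle-like, pericyte-like and surface epithelium-like cells. In the cluster that mixed melanocyte and RPE markers, Efnb2 was 5.49-fold higher in humdG (2.37–14.2), from 8 and 23 UMIs. The part of free RNA in these ratios was not tested. With cells chosen by marker gates in place of clusters, 2 ratios whose interval had left out 1 turned direction, the log2 ratio of Efnb1 in neurogenic-like cells (0.10) and that of Tbx2 in amacrine and horizontal-like cells (-0.16). In RPE-like cells, 0 of 7 were past the fold in either direction, where 6.96% of genes were higher and 15.8% were lower. This count depended on how cells were chosen, since 2 members were past the fold at resolution 1.0 (Tbx3, log2 ratio 0.74, and Ephb3, -0.62) and 1 in cells with at least 5000 UMIs (Ephb3, -0.71). With marker gates 7 members were past it, which are not the same 7, since Vax2 (0.576) stayed under the fold. The gates took 2469 humWT and 978 humdG cells as RPE-like, against 541 and 384 in the clusters. Whether the added cells were RPE was not tested. No share of all genes is given beside these alternative counts. RPE-like ratios ran from 0.684 (0.471–0.976) for Ephb3 to 1.22 (0.905–1.63) for Tbx2. Across the lists, Nr2f2 was higher (2.12-fold) and Bmp4 lower (0.493) in photoreceptor precursor-like cells, where 4 of 6 ventral list genes with enough UMIs were lower (Chrdl1, Bmpr1b, Smoc1 and Ephb1, from 0.354 to 0.624). Aldh1a1 was higher in neurogenic-like cells (3.86-fold) and in amacrine and horizontal-like cells (2.73-fold), and Bmp4 was lower in both (0.655 and 0.515). In the latter class, 1 of 6 ventral list genes, Aldh1a3 (1.71-fold), was higher and 2, Chrdl1 (0.345) and Ephb1 (0.614), were lower. In RPE-like cells Aldh1a1 was higher (1.99-fold, 0.959–4.18, an interval that reached 1), and 2 of 6 ventral list genes, Smoc1 (0.331) and Chrdl1 (0.554), were lower. Genotype, the 3 pooled embryos and the preparation of each library cannot be told apart in any of these ratios.

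**Figure D5:**
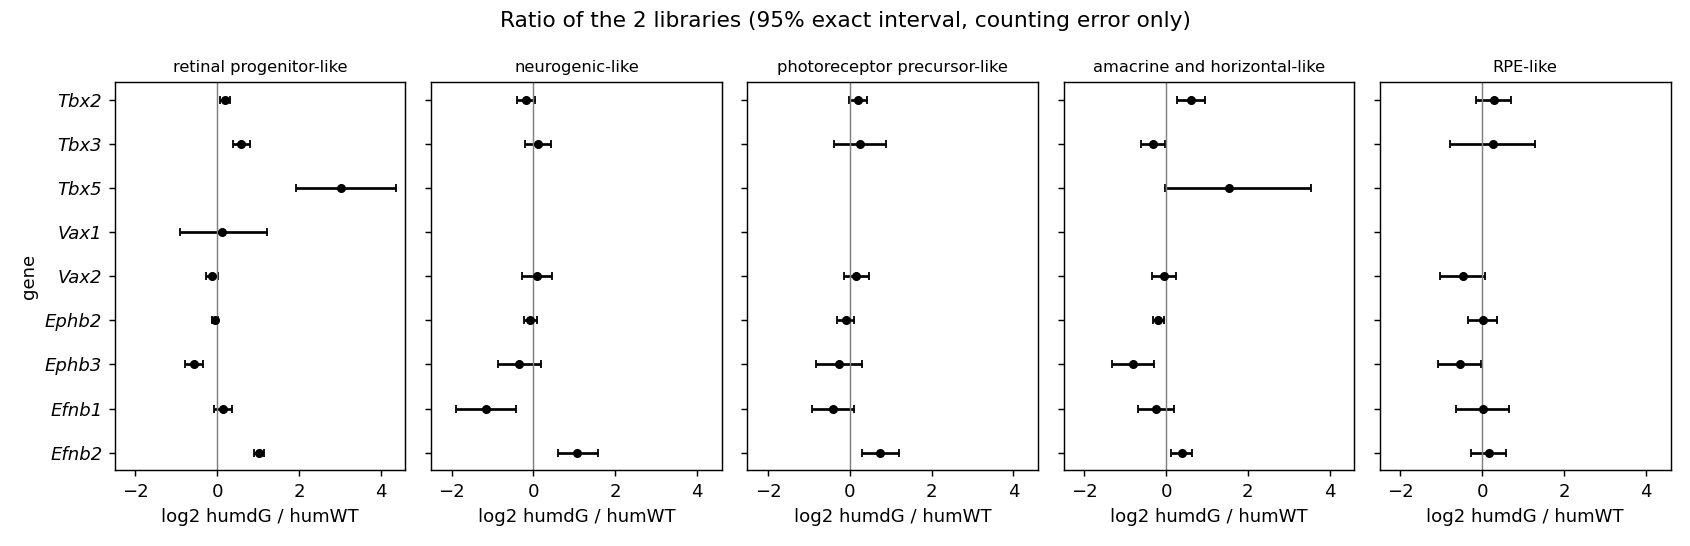
Log2 ratio of the humdG to the humWT level of the 9 genes, in a panel for each of 5 classes, with points for the ratio and bars for 95% exact conditional binomial intervals. In progenitors Efnb2, Tbx3 and Tbx5 lie to the right of 0 (no difference), while the intervals of Vax2 and Ephb2 include 0.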

How the data were processed

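Single-cell RNA was captured with the 10x Genomics 3′ chemistry from 1 library per genotype of pooled E17.5 eye cups. The authors deposited raw UMI counts per gene and cell from Cell Ranger. The submitters' processing notes name Cell Ranger 7.1.0, Seurat 4.1.1 and the mm10 build, and the paper's methods name other Seurat versions. Whether intronic reads were counted is not given in the sources used here. The labels' protocol describes removal of the cornea, and the paper's methods describe keeping it. That protocol also speaks of pooling conditional knockout animals and their controls, whereas the titles and the paper give the humanized strains, which were used here. No column of per-sample values was left unmapped.

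Barcodes numbered 17421 in humWT and 19565 in humdG, with 129135207 and 114319529 UMIs. Cells with over 500 genes and under 15% mitochondrial UMIs were kept. Scrublet (scanpy 1.11.5) marked 1 and 0 cells, which is too few for it to have worked, so the top 5% by score were left out (851 and 957 cells). The cells left out had median depths of 3759 and 2101 UMIs, against 3785 and 2625 in the cells kept. Whether they were doublets was not tested. Libraries were integrated and clustered with Seurat 5.3.0 in R 4.3.3 (2000 variable genes without the 9 members, 20 dimensions, resolution 0.5). A cluster was named from at least 3 raised markers (2-fold, in at least 10% of cells), a rule chosen after the data were seen. A cluster that mixed melanocyte and RPE markers was not compared, apart from its Efnb2 ratio between the libraries. Counts were summed per class with Python 3.11.15, numpy 2.4.6, scipy 1.17.1 and pandas 2.3.3, and plotted with matplotlib 3.10.9. Intervals are exact Poisson for levels, Clopper-Pearson for shares and exact conditional binomial for ratios, at 95%. Ratios between libraries needed 20 UMIs over both, and ratios between marked cells 50 UMIs in each library. UMIs share free RNA and cell capture, so these intervals cover counting error only. The code was tested on simulated data. Alternatives included library factors of edgeR 4.0.16, and 2 were chosen after seeing the data (each progenitor-like cluster on its own, and Vax2 against Tbx3 as markers).

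The members, lists and comparisons were chosen with earlier results of these data known. Genes named in the text are the 9 members, fixed lists of dorsal, ventral, equatorial, nasal, temporal and other EphB and ephrin-B genes, and the 8 genes most like Vax2 and the 8 most like Tbx5 by the smaller log2 ratio of the 2 libraries. Promoters were those of RefSeq on GRCm38.p6, and gene positions those of GENCODE on GRCm38.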

Additional observations from a re-analysis of the deposited data

Results flagged for a closer look

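The members were also counted, in each library, in 3 clusters that had no class name. Cells of these clusters entered the text elsewhere through the ganglion cell gate alone. By their intervals, 11 levels there were more than 2 times the level in red blood cell-like cells. The share of all genes past this mark was not computed, so this count does not set the members apart from other genes. The first of these clusters held 3367 humWT and 7576 humdG cells with median depths of 2267 and 1651 UMIs. In its humdG cells Vax2 was at 26.8 CPM against 4.42 CPM in red blood cell-like cells, Ephb2 was at 89.8 against 24.7 CPM and Efnb2 was at 55.8 against 13.2 CPM. In the second cluster (720 and 794 cells), Vax2 was at 25.4 CPM in humdG against 4.42 CPM.

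The third cluster held 264 humWT and 205 humdG cells with median depths of 12683.5 and 11524 UMIs, and 7 of the 11 levels were found there. In humdG, Ephb2 was at 490 CPM against 24.7 CPM, Efnb2 at 138 against 13.2 CPM, Tbx2 at 88.2 against 15.9 CPM, Tbx3 at 40.7 against 4.42 CPM and Vax2 at 34.0 against 4.42 CPM. In humWT, Ephb2 was at 218 CPM against 22.5 CPM and Efnb2 at 61.9 against 20.3 CPM. Cells of this cluster made up 104 of the 136 humWT and 85 of the 271 humdG cells that passed the ganglion cell gate.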

How the results depend on the processing

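No paired analysis was possible because each genotype has 1 library. In progenitors, 3 members were past 1.5-fold between the libraries, and 2, without Tbx3, at resolution 1.0, with members among the variable genes, with a mitochondrial share under 10% and in cells with at least 5000 UMIs. With marker gates the 3 were Tbx3, Tbx5 and Ephb3, with Efnb2 at a log2 ratio of 0.33. In neurogenic-like cells the number was 2, and it was 1 with marker gates in place of clusters and 4 with no filter on low counts. In photoreceptor precursor-like cells it was 1, and 4 with no doublet removal, 2 with marker gates and 2 with no filter. With no doublet removal, the log2 ratios there were 1.21 for Tbx3, 1.09 for Ephb2 and 1.42 for Efnb2, against 0.25, -0.10 and 0.74. In amacrine and horizontal-like cells it was 3, and 1 at resolution 1.0, 1 with members among the variable genes and 1 with marker gates. In RPE-like cells it was 0, and 2 at resolution 1.0, 1 in cells with at least 5000 UMIs, 7 with marker gates and 2 with no filter. With marker gates the log2 ratio of Efnb1 in neurogenic-like cells turned to 0.10 and that of Tbx2 in amacrine and horizontal-like cells to -0.16. Opposite-side pairs below expectation in both libraries numbered 10 of 13, 6 of 12 with no depth bins and 0 of 3 after thinning, and same-side pairs above it 10 of 10 and 1 of 3 after thinning. Tbx2 with Ephb2 in humWT turned to 1.00 with no bins and 1.09 after thinning. Thinning also turned Ephb2 with Efnb1 in humWT to 1.56, Tbx2 with Tbx3 in humdG to 0.788 and Tbx2 with Efnb2 in humdG to 0.897. Genes higher in Vax2-marked cells numbered 19, and 3 with any Vax against any T-box gene and 4 with Vax2 against Tbx3. Genes higher in Tbx5-marked cells numbered 20, and 12 and 7 under these, and 70 with at least 20 UMIs. The cause was not tested for any of these.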

Other observations

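At a finer resolution of 1.0, a retinal ganglion cell-like class did form, with 1058 humWT and 3353 humdG cells and median depths of 3139 and 1878 UMIs. Its larger cluster had 4 raised ganglion cell markers (Sncg, Nefl, Stmn2 and Gap43) and its smaller cluster had 8, among them Isl1, Pou4f1 and Rbpms. Ephb2, the receptor that ventral ganglion cell axons use, was at 183 CPM (172–195) in humWT and 291 CPM (282–300) in humdG. The share of cells with an Ephb2 UMI had the opposite order, at 33.8% in humWT and 24.4% in humdG. Its thinned shares had intervals of 8.54–12.3% in humWT and 9.98–12.1% in humdG, which overlapped. The most Ephb2 UMIs in any cell were 24 in humWT and 189 in humdG, so the higher humdG level was not seen as a higher share of cells. Efnb2 was at 54.6 CPM (48.7–61.1) and 97.2 CPM (92.0–103), Tbx2 at 34.9 and 66.3 CPM, and Vax2 at 23.4 and 28.7 CPM. Thinned shares were 3.03% (2.08–4.25) and 6.02% (5.24–6.88) for Efnb2, which did not overlap. For Tbx2 they were 3.41% (2.40–4.68) and 4.47% (3.79–5.22), and for Vax2 2.65% (1.77–3.81) and 2.43% (1.93–3.01), which overlapped. Tbx5 was found as 2 UMIs in humWT and 49 in humdG.

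In this class the pairs of Vax2 with dorsal genes given here were not found together less often than expected. Tbx2 and Vax2 were together in 35 cells against 25.9 expected in humWT (1.35, 0.996–1.74) and in 87 against 65.2 in humdG (1.33, 1.11–1.57). Tbx3 and Vax2 were at 1.24 (0.773–1.82) and 1.49 (1.16–1.85), and Vax2 and Efnb2 at 1.03 (0.765–1.32) and 1.22 (1.02–1.42). Tbx5 and Efnb2 were together in 27 humdG cells against 14.5 expected. The 2 clusters differ in depth (medians of 1810 and 8957.5 UMIs in humdG) and in their shares of each library. Pairs with any gene were not examined in this class, so these ratios cannot show whether the 2 sides are apart. The difference from progenitors was not tested.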
